A study of Mus musculus with 18 samples.

Results

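The genes described here are the axon guidance ligands and receptors of the semaphorin, plexin, neuropilin, ephrin, Eph, Slit, Robo, netrin and Unc5 families in 10T1/2 cells, a mouse multipotent fibroblast line. These families were picked with earlier results of these data known. The genes were then taken by name, as the protein coding genes of the deposited count table whose symbols belong to these families. Of the table's 54532 genes (22046 of them protein coding), 67 met the rule. They comprise 7 class 3 semaphorins, 13 membrane semaphorins, 9 plexins, 2 neuropilins, 8 ephrins, 14 Eph receptors, 3 Slits, 4 Robo receptors, 3 netrins and 4 Unc5 receptors. Transcripts were counted by bulk RNA sequencing in 18 libraries, 3 in each of 6 groups. The genotypes were WT and FOXS1 KO, the latter as clone 1 and clone 2. Each was left uninduced (Control) or stimulated with TGF-β1 (1 nM, 12 h) and then for 48 h with DMII, an adipogenic mix of dexamethasone, IBMX, insulin and indomethacin. By the study's methods, cells were 2 days past confluence before DMII induction and were serum-starved overnight before TGF-β1. Both clones went through CRISPR-Cas9 editing with guides against *Foxs1*, puromycin selection and expansion from a single cell. The sources used here do not say that the WT cells passed through selection or cloning. Each genotype effect is the difference between 1 clone and WT, in which the edit and the clone's origin cannot be told apart. The labels do not say that the 3 libraries of a group came from separate cultures, so p-values measure the spread between these libraries alone, which may be technical.

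Semaphorins signal through plexins, which regulate small GTPases and thereby the cytoskeleton and adhesion. The class 3 semaphorins are secreted and mostly need a neuropilin as the binding subunit of the receptor, whereas the membrane semaphorins bind plexins directly. Ephrins are tethered to the membrane, A ephrins by a lipid anchor and B ephrins by a transmembrane segment, and signal to Eph receptor tyrosine kinases on the neighbouring cell. Slit proteins are secreted ligands of Robo receptors, and netrins are laminin-like ligands of receptors that include the Unc5 family. Outside the nervous system these families are known for roles in vessel growth, cell migration and contact between mesenchymal cells.

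*Foxs1*, the targeted gene, had a higher RNA level in the libraries labelled FOXS1 KO than in those labelled WT. It had 1.81, 3.25 and 1.64 CPM in the libraries labelled uninduced WT and 3.13, 2.55 and 1.85 CPM in those labelled stimulated WT, where CPM is the count scaled to library size with TMM normalisation. The libraries labelled clone 1 had 26.7, 27.1 and 23.4 CPM uninduced and 53.6, 52.9 and 56.8 CPM stimulated. Those labelled clone 2 had 21.1, 22.9 and 23.9 CPM uninduced and 38.8, 38 and 42.8 CPM stimulated. All 12 libraries labelled FOXS1 KO therefore lay above all 6 labelled WT. The study reports a disrupted locus by sequencing of genomic DNA and a loss of FOXS1 protein in both clones by western blotting. Neither was analysed here. A count per gene does not show whether an edit is present, and every direction given for a clone rests on the labels. Library totals ran from 15576685 to 42005596 counts, of which the 67 genes held 0.2525% to 0.3566%. All 10 fibroblast markers checked were counted in every group, with a summed level of 40400 to 105000 CPM per library. Of 5 markers each, the endothelial list summed to 5.09 to 7.92 CPM in uninduced WT libraries and to 1.14 CPM or less in the uninduced clones. After stimulation it summed to 0.389 to 0.636 CPM in WT, 0.0455 to 0.59 in clone 1 and 0.131 to 0.361 in clone 2. *Cldn5* was at 0 throughout. The neuronal list summed to 4.51 to 12.4 CPM in WT libraries, 2.51 to 6.06 CPM in clone 1 and 0.174 CPM or less in clone 2, with *Snap25* at 0 in every WT and clone 1 library. The glial list stayed at 6.47 CPM or less with *Sox10* and *Foxd3* at 0 throughout, and the epithelial and immune lists at 3.28 CPM or less. The adipocyte list reached 30.5 to 43.0 CPM in stimulated clone 1 and 4.64 CPM or less elsewhere. The part of these lists in the results below was not tested.

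A broad set of guidance genes was present in these fibroblasts. On the scale of mean CPM per kb of gene length over the 6 groups, the only scale on which genes are compared with each other here, *Plxnb2*, a receptor of class 4 semaphorins, stood first at 67.4. It was followed by the netrin receptor *Unc5b* at 41.0, the ephrin-B receptors *Ephb4* at 32.6 and *Ephb3* at 23.1, *Ntn1* at 24.2, and the neuropilins *Nrp1* at 22.3 and *Nrp2* at 20.5. Group means overlapped widely among these, since *Unc5b* ran from 6.63 to 92.3 CPM per kb across groups and *Ntn1* from 3.77 to 36.3, while *Ephb3* ran from 19.5 to 26.7. The leading class 3 semaphorins were *Sema3f* at 16.7 and *Sema3c* at 16.2, the leading ephrin was *Efna1* at 10.3, the leading membrane semaphorin *Sema4c* at 7.97 and the leading Slit was *Slit2* at 5.37. *Robo1*, the leading Robo receptor, had 0.274. These ranks are of the mean over the 6 groups and did not all hold in every group. In stimulated WT, *Efnb2* had 23.4 and *Efna1* 8.28 CPM per kb. In stimulated clone 1, *Sema3c* had 22.7 and *Sema3f* 8.46 CPM per kb. At the other end, 16 members were filtered out for low counts, with totals of 0 to 81 counts over all 18 libraries. *Epha5*, *Epha6*, *Epha10*, *Ephb1*, *Robo4* and *Unc5d* had no count at all. *Robo3* had 1 count, *Epha3* had 7, *Epha8* had 8, *Slit1* had 9, *Sema5b* had 22, *Sema4f* had 25, *Unc5a* had 27, *Sema6d* had 54, *Epha1* had 60 and *Efnb3* had 81. The 51 other members were tested, and 7 of them had a mean under 1 CPM. These 7 were *Robo2*, *Sema4a*, *Sema4d*, *Sema4g*, *Sema6b*, *Plxnc1* and *Ntn5*, which are given by their counts and ranges.

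**Figure D1:**
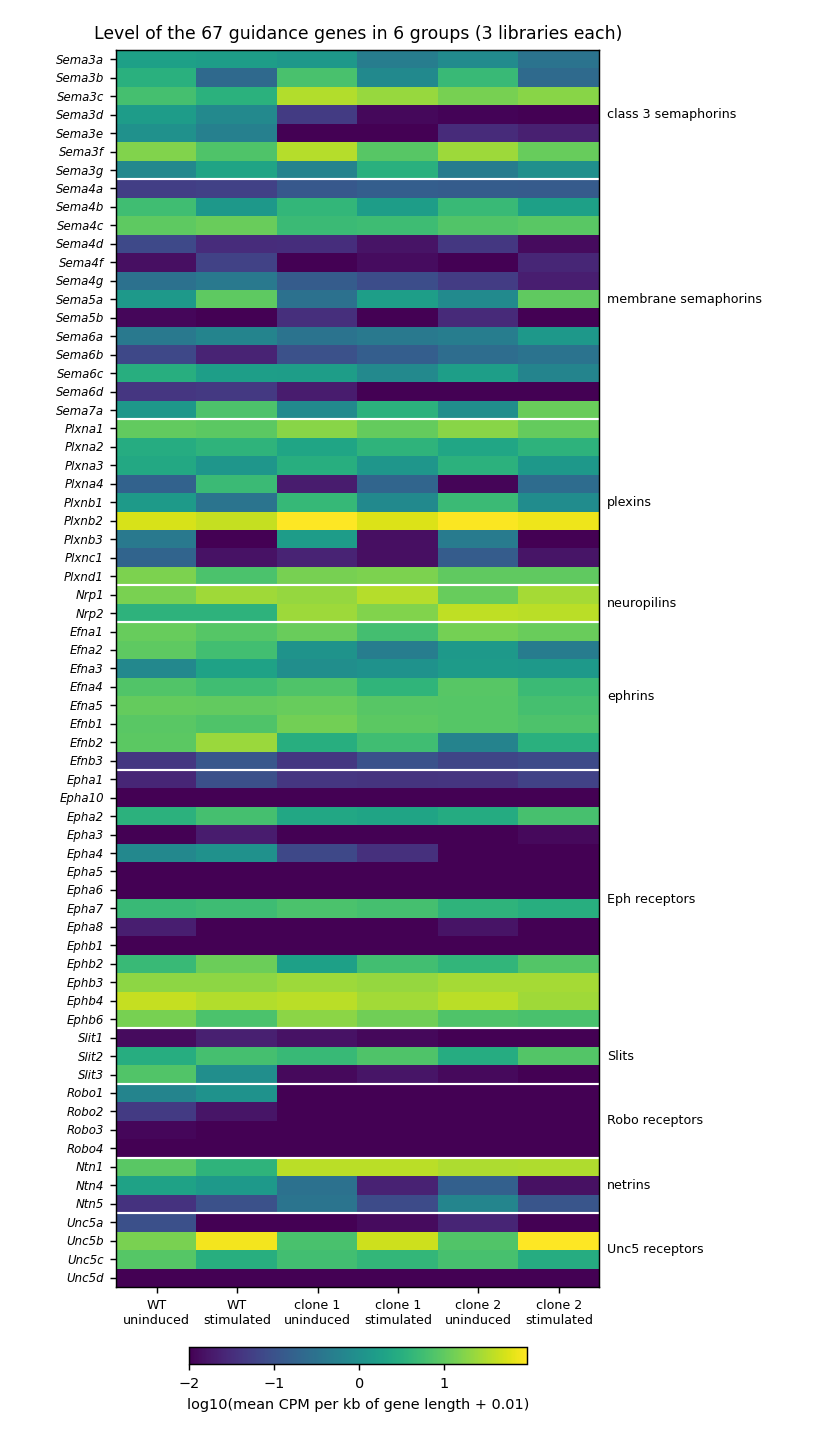
Colour gives log10 of the mean CPM per kb of gene length (plus 0.01) of the 67 members (rows, ordered by role) in the 6 groups (columns, 3 libraries each). Plxnb2 is bright in all groups, Robo1 and Slit3 turn dark in the 4 columns of the clones, and Robo2 is dark in all 6 columns.

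A gene was called a DEG at an absolute log2 fold change above 1 with an adjusted p below 0.05, from the quasi-likelihood test of edgeR fitted over the 6 groups and 14317 genes (Benjamini-Hochberg). In TGF-β1 + DMII stimulated cells, 8 of the 51 tested members were higher and 18 lower in clone 1 than in WT, or 15.7% and 35.3%, where 9.42% of all tested genes were higher and 9.6% lower. In stimulated clone 2, 6 were higher and 13 lower, or 11.8% and 25.5%, against 7.95% and 8.94% of all tested genes. In uninduced clone 1, 7 were higher and 14 lower, or 13.7% and 27.5%, against 6.32% and 8.73% of all tested genes. In uninduced clone 2, 8 were higher and 12 lower, or 15.7% and 23.5%, against 5.54% and 9.56%. The median log2 fold change of the tested members was -0.32 in stimulated clone 1 and -0.03 in stimulated clone 2, and -0.29 and -0.33 in the uninduced clones, beside medians of -0.02 to -0.01 over all tested genes. These shares describe the list, and whether they set it apart was not tested. A gene counted in WT libraries alone could enter the test and then had to differ, among the members and all tested genes alike. The WT libraries enter the comparisons of both clones, which are therefore not independent and are given side by side. In bulk RNA, fewer cells of a kind and less RNA per cell cannot be told apart.

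**Figure D2:**
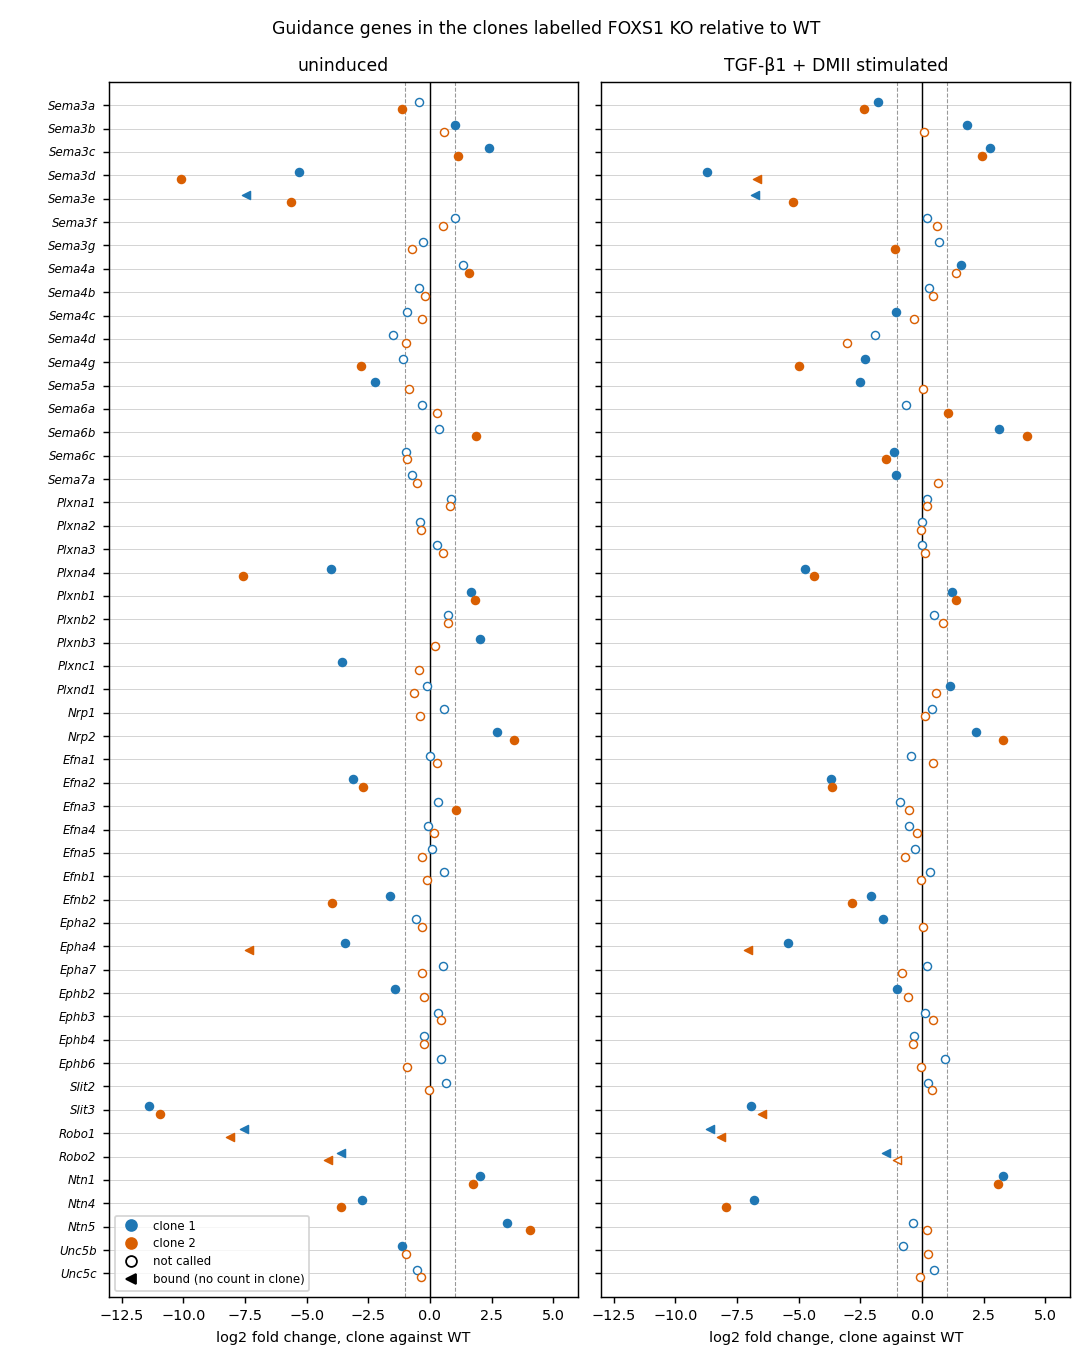
Log2 fold change of clone 1 (blue) and clone 2 (orange) against WT for the 51 tested members, in uninduced (left) and TGF-β1 + DMII stimulated cells (right). Filled symbols are DEGs, triangles are bounds set at 3 counts where the clone had no count, points with 1 to 3 counts in a group are count ratios, members with both groups at or under 3 counts have no point, and dashed lines mark a log2 fold change of 1 in each direction. Robo1, Slit3, Sema3d and Sema3e lie far to the left in both panels, and Ntn1, Nrp2 and Sema3c to the right.

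Among the class 3 semaphorins, *Sema3d* and *Sema3e* were nearly lost from both clones, *Sema3a* was lower and *Sema3c* was several-fold higher. The promoters of the first pair are shown because these genes had the fewest transcripts left of the class. Each is the window of 250 bases before the RefSeq transcription start (GRCm38.p6), 5′ to 3′ on the gene's strand, with CpG dinucleotides in capitals.
*Sema3d*, chr5:12382916-12383165, plus strand: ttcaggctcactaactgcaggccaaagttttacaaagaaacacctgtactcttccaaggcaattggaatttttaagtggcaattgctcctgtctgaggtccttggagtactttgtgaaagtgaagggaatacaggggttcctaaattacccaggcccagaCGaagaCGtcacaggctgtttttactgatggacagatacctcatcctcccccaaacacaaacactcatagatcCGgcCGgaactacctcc
*Sema3e*, chr5:14025026-14025275, plus strand: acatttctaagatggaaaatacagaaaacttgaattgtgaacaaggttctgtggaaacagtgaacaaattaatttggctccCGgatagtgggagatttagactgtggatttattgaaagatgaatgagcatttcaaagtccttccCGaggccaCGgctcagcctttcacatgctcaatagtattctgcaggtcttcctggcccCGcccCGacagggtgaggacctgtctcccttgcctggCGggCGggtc
Those of *Sema3d* and *Sema3e* hold 4 and 7 CpG and are 46.8% and 48.0% G or C, whereas that of *Sema3c*, on the same chromosome, holds 39 CpG and is 78.4% G or C. The RefSeq start of *Sema3d* lies 219 bases before the start in the count table, and that of *Sema3c* lies 535 bases after it. The window of *Sema3c* therefore lies within the table's gene, whereas those of *Sema3d* and *Sema3e* lie before theirs. Over the 58 members with a RefSeq promoter the median was 16 CpG and 64.8% G or C, beside 6 CpG and 52.4% over all 32536 distinct promoters.

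*Sema3d* (ENSMUSG00000040254, chromosome 5, 12383385 to 12588948), a secreted ligand known from heart and vessel patterning, had 16.8, 12.9 and 9.87 CPM in uninduced and 6.94, 5.44 and 6.49 CPM in stimulated WT libraries. In uninduced clone 1 it had 0.205, 0.215 and 0.57 CPM, and 1 count remained over the 3 stimulated libraries. Clone 2 had 1 count uninduced and none stimulated. Every library of a clone lay far under every WT library. The log2 fold change in uninduced clone 1 was -5.29 (SE 0.35, adjusted p = 3.16e-13). In stimulated clone 1 the ratio of counts was 425-fold (exact 95% interval 75.9 to 16800.0) lower, and in uninduced clone 2 it was 1080.0-fold (exact 95% interval 192 to 42500.0) lower. In stimulated clone 2 the level was at least 104-fold lower, with the floor set at 3 counts over the group. *Sema3e* (ENSMUSG00000063531, chromosome 5, 14025276 to 14256689), which binds *Plxnd1* without a neuropilin, had 11.1, 8.23 and 8.42 CPM in uninduced and 4.89, 4.41 and 5.1 CPM in stimulated WT libraries. Clone 1 had no count in any of its 6 libraries, whereas clone 2 kept a trace, 0.134, 0.266 and 0.174 CPM uninduced and 0.224, 0 and 0.12 CPM stimulated. Levels in clone 1 were at least 174-fold lower uninduced and at least 108-fold lower stimulated. In clone 2 the log2 fold changes were -5.63 (SE 0.38, adjusted p = 2.28e-12) uninduced and -5.25 (SE 0.45, adjusted p = 2.03e-10) stimulated.

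*Sema3a* (ENSMUSG00000028883, chromosome 5, 13125414 to 13602565), the prototype repellent that signals through *Nrp1* and A plexins, lies between *Sema3d* and *Sema3e*. Uninduced libraries had 25.2, 22.3 and 25.7 CPM in WT, 19, 19.2 and 15.6 in clone 1 and 9.68, 11.8 and 12 in clone 2. Stimulated libraries had 20.4, 24.1 and 23.2 CPM in WT, 5.38, 7.08 and 7.06 in clone 1 and 4.82, 4.58 and 3.73 in clone 2, so the groups did not overlap in either treatment. The log2 fold changes were -0.44 (SE 0.12) and -1.14 (SE 0.12) uninduced, where clone 1 stayed under the fold threshold, and -1.78 (SE 0.13, adjusted p = 5.14e-13) and -2.36 (SE 0.14, adjusted p = 6.82e-15) stimulated. The next tested gene after *Sema3e*, *Cacna2d1*, had log2 fold changes of -0.56 to 0.28 in the 4 comparisons. The one after it, *Hgf*, had -3.02 and -2.50 in uninduced and stimulated clone 1. In clone 2 the fitted values of *Hgf* were -13.94 uninduced and -11.8 stimulated. *Sema3c* (ENSMUSG00000028780, chromosome 5, 17574281 to 17730268), a ligand of both neuropilins, went the other way. It had 43.8, 46 and 45.2 CPM in uninduced and 24.4, 22.8 and 25 CPM in stimulated WT libraries. Clone 1 had 235, 221 and 244 CPM uninduced and 155, 155 and 177 CPM stimulated, and clone 2 had 105, 95.3 and 99.5 CPM uninduced and 132, 122 and 128 CPM stimulated. The lowest clone library lay above the highest WT library in each treatment. Uninduced cells had log2 fold changes of 2.38 (SE 0.06) in clone 1 and 1.15 (SE 0.06) in clone 2, and stimulated cells 2.75 (SE 0.06, adjusted p = 5.79e-25) and 2.41 (SE 0.06, adjusted p = 2e-23).

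The 3 remaining class 3 semaphorins were *Sema3f*, *Sema3b* and *Sema3g*. *Sema3f*, an *Nrp2* ligand, had the highest mean CPM per kb of the class over the 6 groups. In WT it had 86.7, 84.5 and 87.1 CPM uninduced and 40.7, 38.1 and 35.8 CPM stimulated. In clone 1 it had 169, 173 and 174 CPM uninduced and 43.3, 48.1 and 40.4 CPM stimulated, and in clone 2 119, 128 and 124 CPM uninduced and 56.6, 62.1 and 54.7 CPM stimulated. None of its comparisons with WT was called, the largest being 1.00 (SE 0.06) in uninduced clone 1. *Sema3b*, a secreted ligand named a tumour suppressor in the lung, had 20.6, 13.8 and 12.9 CPM uninduced and 1.27, 1.08 and 0.767 CPM stimulated in WT. Clone 1 had 30.2, 32.6 and 32.2 CPM uninduced and 3.51, 3.02 and 4.42 CPM stimulated, and clone 2 22.7, 22.9 and 24 CPM uninduced and 1.51, 1.05 and 0.722 CPM stimulated. It was higher in clone 1 as a DEG, with 1.01 (SE 0.15) uninduced and 1.81 (SE 0.24) stimulated, and clone 2 had 0.56 (SE 0.15) and 0.09 (SE 0.32). In clone 1, the uninduced call was lost without WT replicate 2 (0.94), WT replicate 3 (0.88) or clone 1 replicate 2 (0.99). *Sema3g*, a ligand known from vessels and adipose tissue, had 1.92, 3.88 and 3.7 CPM uninduced and 9, 9.55 and 9.69 CPM stimulated in WT and 2.46, 2.47 and 2.95 CPM uninduced and 12.8, 15.1 and 17.1 CPM stimulated in clone 1. Clone 2 had 1.72, 1.28 and 3.07 CPM uninduced and 4.43, 4.45 and 4.33 CPM stimulated, and stimulated clone 2 was lower than WT by the call, at -1.10 (SE 0.22).

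**Figure D3:**
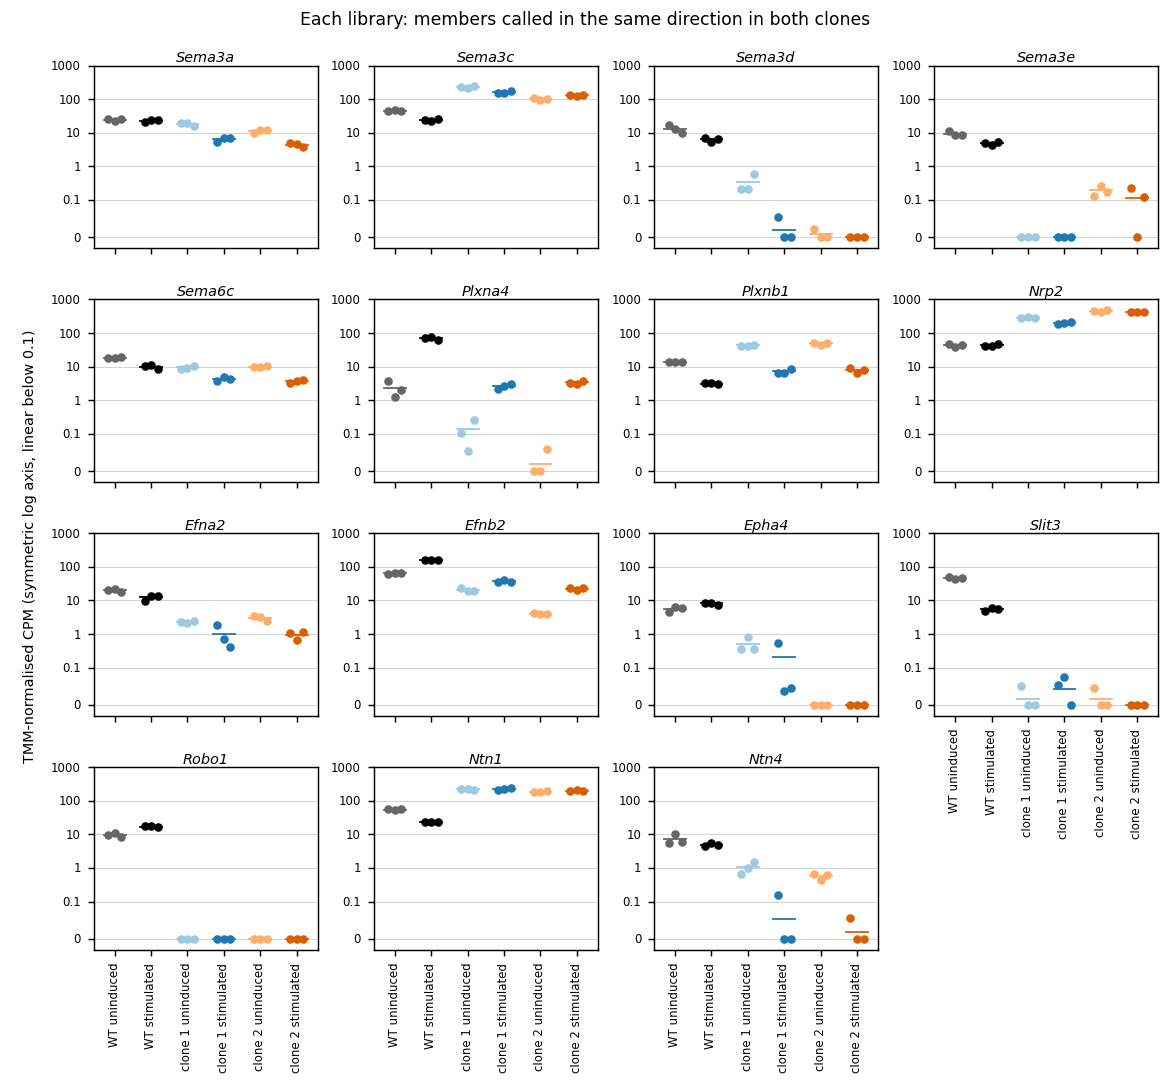
Each point is the level of 1 library in TMM-normalised CPM (symmetric log axis, linear below 0.1), and each bar the mean of the 3 libraries of a group, for the 15 members with a mean of at least 1 CPM that were DEGs in the same direction in both clones in at least 1 treatment. Points at 0 have no count, as in the 12 clone libraries of Robo1.

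Of the 13 membrane semaphorins, 10 were tested. *Sema6c*, a transmembrane ligand of A plexins, was lower in both stimulated clones. It had 18.6, 17.5 and 19.1 CPM in uninduced WT, 8.71, 9.23 and 10.5 in clone 1 and 9.46, 9.65 and 10.1 in clone 2. After stimulation it had 10.3, 10.8 and 8.57 CPM in WT, 3.78, 4.98 and 4.37 in clone 1 and 3.19, 3.73 and 3.97 in clone 2, with no overlap between clones and WT. The log2 fold changes were -1.16 (SE 0.14) and -1.45 (SE 0.15) stimulated, and -0.96 (SE 0.13) and -0.92 (SE 0.13) uninduced, which stayed under the fold threshold. *Sema4c*, a *Plxnb2* ligand, had the highest mean CPM per kb of these genes over the 6 groups. In WT it had 50.6, 41.3 and 39.8 CPM uninduced and 54, 51.3 and 50.5 CPM stimulated. It had 22.7, 23.2 and 22.5 CPM uninduced and 23.5, 25 and 25.8 CPM stimulated in clone 1, and 33.8, 35.7 and 35.4 CPM uninduced and 40.8, 42.5 and 40.8 CPM stimulated in clone 2. Stimulated clone 1 was a DEG at -1.07 (SE 0.08). Exons of an antisense gene cover 7.27% of its exonic bases, and without the strand setting the 2 genes' reads cannot be told apart.

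*Sema5a*, a transmembrane protein with thrombospondin repeats that binds *Plxnb3*, separated the clones. It had 25.3, 29 and 23.2 CPM uninduced and 170.0, 177 and 192 CPM stimulated in WT, 5.63, 5.26 and 5.64 CPM uninduced and 32.5, 34.7 and 27.6 CPM stimulated in clone 1, and 14.3, 12.6 and 16.5 CPM uninduced and 167, 182 and 207 CPM stimulated in clone 2. Clone 1 lay under WT in both treatments, at -2.22 (SE 0.13, adjusted p = 2.97e-13) and -2.51 (SE 0.09, adjusted p = 3.31e-17), while stimulated clone 2 overlapped WT, at 0.05 (SE 0.09). *Sema7a*, a lipid-anchored semaphorin that binds integrins and *Plxnc1*, had 3.2, 5.14 and 4.23 CPM uninduced and 23.2, 26.4 and 22.5 CPM stimulated in WT and 2.2, 3.92 and 1.61 CPM uninduced and 12.9, 12.2 and 9.88 CPM stimulated in clone 1. Clone 2 had 2.88, 2.3 and 3.77 CPM uninduced and 33.7, 38.3 and 41.4 CPM stimulated. Stimulated clone 1 was lower at -1.04 (SE 0.17), a call lost without WT replicate 2 (-0.96) or clone 1 replicate 3 (-0.92), and stimulated clone 2 had 0.65 (SE 0.16). *Sema6a*, a ligand of *Plxna2* and *Plxna4*, had 2.15, 4.88 and 3.09 CPM uninduced and 4.89, 5.74 and 5.37 CPM stimulated in WT, 2.51, 3.22 and 2.43 CPM uninduced and 3.78, 3.5 and 2.82 CPM stimulated in clone 1, and 4.31, 4.52 and 3.54 CPM uninduced and 11.4, 10.3 and 11.8 CPM stimulated in clone 2. Stimulated clone 2 was higher at 1.06 (SE 0.20). The scarce *Sema6b* totalled 4 counts in stimulated WT, against 38 for clone 1 and 62 for clone 2, and was higher in both stimulated clones, at 3.11 (SE 0.91) and 4.25 (SE 0.86). Its call in uninduced clone 2, at 1.86 (SE 0.69), was lost without replicate 1 or 2 of either group (1.36 to 1.82) or with only the groups compared in the fit (1.87). *Sema4g* had 127 counts in stimulated WT, 26 in clone 1 and 3 in clone 2, and was lower in both, at -2.32 (SE 0.53) in clone 1 and by a ratio of 32-fold (exact 95% interval 10.7 to 157) in clone 2. *Sema4a* was a DEG in stimulated clone 1 at 1.57 (SE 0.64) and in uninduced clone 2 at 1.57 (SE 0.65), with 15 to 65 counts per group. The first call was lost without any WT library or without clone 1 replicate 1 or 2 (adjusted p of 0.0544 to 0.165, edgeR), and the second without replicate 1 or 3 of either group (0.0984 to 0.218). Both were lost with the looser filter and the replicate block (adjusted p of 0.0508 to 0.0634, edgeR). *Sema4b* was not a DEG against WT. *Sema4d*, the *Plxnb1* ligand, had 1 to 32 counts per group and was not called.

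Plexins and neuropilins, the receptor subunits of the semaphorins, held both a near loss and clear rises. *Plxna4* (ENSMUSG00000029765, chromosome 6, 32144268 to 32588192), a receptor for *Sema3a* with *Nrp1* and for *Sema6a*, had 3.84, 1.21 and 2.02 CPM in uninduced and 70.0, 77.4 and 63 CPM in stimulated WT. Clone 1 had 0.102, 0.0536 and 0.259 CPM uninduced and 2.18, 2.58 and 3.01 CPM stimulated, and clone 2 had 1 count over its 3 uninduced libraries and 3.31, 3.01 and 3.79 CPM stimulated. The stimulated clones thus lay near the uninduced WT level and far under stimulated WT. The log2 fold changes were -4.75 (SE 0.21, adjusted p = 2.4e-15) and -4.38 (SE 0.21, adjusted p = 1.3e-14) stimulated and -3.99 (SE 0.50) in uninduced clone 1, and the ratio of counts in uninduced clone 2 was 193-fold (exact 95% interval 34 to 7660.0) lower. *Plxnb1* (ENSMUSG00000053646, chromosome 9, 109095389 to 109119917), the *Sema4d* receptor, was higher in both clones. It had 13.4, 14 and 13.6 CPM uninduced and 3.23, 3.15 and 2.93 CPM stimulated in WT, 41.1, 42.1 and 45.3 CPM uninduced and 6.55, 6.6 and 8.47 CPM stimulated in clone 1, and 49.2, 45.3 and 51.6 CPM uninduced and 9.36, 6.47 and 8.18 CPM stimulated in clone 2. On the log2 scale the differences were 1.65 (SE 0.11) and 1.83 (SE 0.10) uninduced and 1.21 (SE 0.14) and 1.37 (SE 0.14) stimulated.

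*Plxnb2* had the highest mean CPM per kb of the members over the 6 groups. In WT it had 434, 402 and 396 CPM uninduced and 319, 325 and 315 CPM stimulated. It had 697, 693 and 689 CPM uninduced and 420.0, 468 and 448 CPM stimulated in clone 1, and 681, 665 and 694 CPM uninduced and 570.0, 584 and 563 CPM stimulated in clone 2. Every clone library lay above the WT libraries of its treatment, but the log2 fold changes of 0.48 to 0.84 stayed under the fold threshold. *Plxnd1*, the *Sema3e* receptor, had 115, 106 and 112 CPM in uninduced and 48.3, 51.7 and 50.2 CPM in stimulated WT, 105, 104 and 99 CPM uninduced and 94.6, 120.0 and 115 CPM stimulated in clone 1, and 72.4, 68.3 and 75 CPM uninduced and 76, 71.2 and 73.7 CPM stimulated in clone 2. Stimulated clone 1 was higher at 1.14 (SE 0.07), and stimulated clone 2 had 0.56 (SE 0.07). *Plxnb3*, the *Sema5a* receptor, was counted in uninduced cells, with 3.55, 1.47 and 2.48 CPM in WT, 9.22, 8.15 and 12.7 in clone 1 and 2.52, 3.28 and 2.84 in clone 2. Uninduced clone 1 was higher at 2.01 (SE 0.29). *Plxnc1*, the *Sema7a* receptor, had 92 counts in uninduced WT, 7 in clone 1 and 96 in clone 2, and was lower in uninduced clone 1 at -3.56 (SE 0.76). *Plxna1*, *Plxna2* and *Plxna3*, the other A plexins, were not DEGs against WT, with log2 fold changes up to 0.84 for *Plxna1* in uninduced clone 1. An antisense gene covers 10.7% of the exonic bases of *Plxna1*.

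*Nrp2* (ENSMUSG00000025969, chromosome 1, 62703285 to 62818695), the co-receptor for *Sema3f* and vascular growth factors, had 46.9, 39.4 and 44.2 CPM in uninduced and 42.2, 41.9 and 47 CPM in stimulated WT. Clone 1 had 285, 295 and 283 CPM uninduced and 184, 198 and 209 CPM stimulated, and clone 2 had 454, 427 and 489 CPM uninduced and 421, 421 and 435 CPM stimulated. The lowest clone library held several times the highest WT library in each treatment. Log2 fold changes were 2.73 (SE 0.06, adjusted p = 1.41e-24) and 3.39 (SE 0.06, adjusted p = 1.46e-26) uninduced, and 2.17 (SE 0.06, adjusted p = 1.34e-22) and 3.28 (SE 0.06, adjusted p = 1.21e-26) stimulated. Its RefSeq promoter, shown for comparison with those of *Sema3d* and *Sema3e*, holds 32 CpG, and the 218 bases before the gene start of the count table are printed.
*Nrp2*, chr1:62703067-62703284, plus strand: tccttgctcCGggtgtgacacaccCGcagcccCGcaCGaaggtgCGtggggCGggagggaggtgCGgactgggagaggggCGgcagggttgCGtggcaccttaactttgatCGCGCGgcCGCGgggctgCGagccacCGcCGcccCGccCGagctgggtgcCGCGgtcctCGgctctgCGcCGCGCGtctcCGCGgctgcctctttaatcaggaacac
*Nrp1*, the co-receptor for *Sema3a*, had 158, 136 and 135 CPM uninduced and 246, 242 and 248 CPM stimulated in WT, 217, 208 and 216 CPM uninduced and 313, 344 and 324 CPM stimulated in clone 1, and 114, 101 and 110.0 CPM uninduced and 253, 273 and 280.0 CPM stimulated in clone 2. Its log2 fold changes against WT ran from -0.40 to 0.58, and none was called.

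Among the ephrins, *Efnb2* and *Efna2* were lower in both clones and both treatments. *Efnb2* (ENSMUSG00000001300, chromosome 8, 8617434 to 8661242), the arterial ligand of *Ephb4*, had 62.6, 65.8 and 64.2 CPM in uninduced and 162, 163 and 156 CPM in stimulated WT. Clone 1 had 23.5, 19.8 and 19.2 CPM uninduced and 36.1, 40.7 and 36.5 CPM stimulated, and clone 2 had 4.24, 3.94 and 3.88 CPM uninduced and 23, 20.5 and 23.1 CPM stimulated. All clone libraries lay under all WT libraries. Fitted log2 fold changes were -1.62 (SE 0.08, adjusted p = 2.36e-17) and -3.98 (SE 0.09, adjusted p = 5.16e-25) uninduced, and -2.08 (SE 0.07, adjusted p = 5.01e-21) and -2.85 (SE 0.08, adjusted p = 1.59e-23) stimulated. *Efna2* (ENSMUSG00000003070, chromosome 10, 80179482 to 80190010), an A ephrin, had 20.2, 22.4 and 18 CPM uninduced and 9.73, 13.2 and 14 CPM stimulated in WT, 2.25, 2.2 and 2.43 CPM uninduced and 1.86, 0.737 and 0.41 CPM stimulated in clone 1, and 3.35, 3.19 and 2.49 CPM uninduced and 1.06, 0.654 and 1.14 CPM stimulated in clone 2. Neither clone overlapped WT in either treatment, and the log2 fold changes were -3.13 (SE 0.24) and -2.72 (SE 0.22) uninduced and -3.68 (SE 0.27) and -3.67 (SE 0.28) stimulated. *Efna1*, the leading ephrin, had 19.3, 20.7 and 21 CPM uninduced and 16, 15.5 and 14 CPM stimulated in WT, 19.1, 20.6 and 22.3 CPM uninduced and 12.3, 11.8 and 9.29 CPM stimulated in clone 1, and 25.2, 26.9 and 23.1 CPM uninduced and 22.3, 19.7 and 20.7 CPM stimulated in clone 2, and was not called against WT. *Efna3* had 2.04, 0.944 and 2.21 CPM uninduced and 5.82, 3.07 and 5.32 CPM stimulated in WT, 2.2, 2.04 and 2.33 CPM uninduced and 2.66, 2.65 and 2.28 CPM stimulated in clone 1, and 3.75, 3.01 and 4.12 CPM uninduced and 3.59, 3.73 and 2.41 CPM stimulated in clone 2. It was higher in uninduced clone 2 at 1.05 (SE 0.28), a call lost without WT replicate 2 (0.77) or clone 2 replicate 3 (0.97), and an antisense gene covers 14.1% of its exonic bases. *Efna4*, *Efna5* and *Efnb1* were not DEGs against WT.

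Of 14 Eph receptors 7 were tested, and *Epha4* was the receptor with the widest gap between clones and WT. *Epha4* (ENSMUSG00000026235, chromosome 1, 77367185 to 77515088), which binds ephrins of both kinds, had 4.48, 6.4 and 5.98 CPM in uninduced and 8.66, 8.64 and 7.12 CPM in stimulated WT. Clone 1 kept 0.359, 0.805 and 0.362 CPM uninduced and 0.532, 0.0369 and 0.0455 CPM stimulated, and clone 2 had no count in any of its 6 libraries. In clone 1 the log2 fold changes were -3.46 (SE 0.42, adjusted p = 1.97e-07) uninduced and -5.45 (SE 0.48, adjusted p = 5.23e-10) stimulated. In clone 2 the level was at least 161-fold and at least 135-fold lower. Its RefSeq promoter, shown as that of a receptor with no count left in clone 2, holds 14 CpG.
*Epha4*, chr1:77515089-77515338, minus strand: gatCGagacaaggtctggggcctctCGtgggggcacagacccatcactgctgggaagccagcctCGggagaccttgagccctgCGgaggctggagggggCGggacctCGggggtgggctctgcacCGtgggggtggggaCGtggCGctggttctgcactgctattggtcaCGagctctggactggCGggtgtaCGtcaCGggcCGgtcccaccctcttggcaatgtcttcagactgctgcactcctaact
*Ephb4*, the *Efnb2* receptor, had 202, 193 and 190.0 CPM uninduced and 152, 149 and 149 CPM stimulated in WT, 163, 162 and 171 CPM uninduced and 123, 125 and 114 CPM stimulated in clone 1, and 167, 163 and 161 CPM uninduced and 117, 118 and 109 CPM stimulated in clone 2. Its log2 fold changes of -0.24 to -0.39 were past the adjusted p but under the fold threshold. *Ephb2* was lower in clone 1, at -1.43 (SE 0.07) uninduced and -1.02 (SE 0.06) stimulated, with stimulated levels of 148 ± 3.42 CPM in WT and 73.2 ± 5.34 CPM in clone 1 (SD, n = 3). The stimulated call lay at the fold threshold and was lost without WT replicate 1 (-0.99) or clone 1 replicate 3 (-0.95). *Epha2*, a receptor of A ephrins, was lower in stimulated clone 1, with 9.26, 10.2 and 9.84 CPM against 29.6, 29.8 and 28.9 in WT and 30.9, 30.2 and 29.2 in clone 2, a log2 fold change of -1.59 (SE 0.10). *Epha7*, *Ephb3* and *Ephb6*, the last of which lacks kinase activity, were not DEGs against WT.

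*Slit3* and its receptors *Robo1* and *Robo2* were close to or at 0 in both clones. *Robo1* (ENSMUSG00000022883, chromosome 16, 72308306 to 73046095) had 167, 217 and 227 counts in the 3 uninduced and 359, 401 and 371 counts in the 3 stimulated WT libraries, or 9.73, 11.4 and 8.65 CPM uninduced and 17.6, 17.3 and 16.7 CPM stimulated. No count of *Robo1* fell in any of the 12 clone libraries. The level was at least 187-fold lower in clone 1 and at least 276-fold lower in clone 2 uninduced, and at least 389-fold and 285-fold lower stimulated. *Robo2* (ENSMUSG00000052516, chromosome 16, 73891839 to 74411825), the next tested gene on chromosome 16, had 39 and 8 counts over the uninduced and stimulated WT libraries and none in the clones. It was at least 12-fold and 17.6-fold lower in the uninduced clones, and the difference in stimulated clone 2 was not called (adjusted p = 0.0535). The call in stimulated clone 1 (adjusted p = 0.0306) was lost without WT replicate 2 or 3 or any 1 library of clone 1 (adjusted p of 0.059 to 0.0828, edgeR). The tested genes on either side of this pair were counted in all groups. *Gbe1*, before *Robo1*, had log2 fold changes of -2.39 and -2.13 in clone 1 and 0.81 and 1.09 in clone 2, and *Hspa13*, after *Robo2*, had 0.17 to 0.43. DNA was not measured, and whether the region is intact in the clones was not tested.

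*Slit3* (ENSMUSG00000056427, chromosome 11, 35121224 to 35708507), a secreted Robo ligand, had 49, 44.7 and 47.5 CPM in uninduced and 4.84, 6.09 and 5.41 CPM in stimulated WT. Clone 1 had 1 count uninduced and 3 counts stimulated, and clone 2 had 2 counts uninduced and none stimulated. In uninduced cells the ratio of counts was 2700.0-fold (exact 95% interval 485 to 107000.0) lower in clone 1 and 1990.0-fold (exact 95% interval 551 to 16500.0) lower in clone 2. After stimulation it was 124-fold (exact 95% interval 42 to 603) lower in clone 1 and at least 90.7-fold lower in clone 2. The RefSeq promoter of *Slit3* holds 35 CpG and is 78.8% G or C, above the values given for *Sema3d* and *Sema3e*. Its RefSeq start lies 232 bases after the start in the count table, so most of this window lies within the table's gene. *Slit3* reached 7.76 CPM per kb in uninduced WT, its highest group. *Slit2*, with the highest mean CPM per kb of the Slits over the 6 groups, ran from 2.89 to 8.13 across groups. It was counted in all groups. It had 74.2, 74.4 and 76.6 CPM in uninduced and 149, 162 and 164 CPM in stimulated WT, 120.0, 110.0 and 122 CPM uninduced and 171, 195 and 197 CPM stimulated in clone 1, and 73.4, 68.9 and 78.5 CPM uninduced and 195, 211 and 215 CPM stimulated in clone 2. Its log2 fold changes against WT lay between -0.03 and 0.64, and none was called.

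Netrins moved in opposite directions. *Ntn1* (ENSMUSG00000020902, chromosome 11, 68209364 to 68400823), the canonical netrin, had 57.8, 52.1 and 55.7 CPM in uninduced and 23.7, 23.1 and 24.2 CPM in stimulated WT. Clone 1 had 224, 232 and 213 CPM uninduced and 216, 231 and 237 CPM stimulated, and clone 2 had 182, 179 and 195 CPM uninduced and 197, 204 and 190.0 CPM stimulated. All 12 clone libraries lay above all 6 WT libraries. The log2 fold changes were 2.01 (SE 0.05, adjusted p = 4.77e-23) and 1.74 (SE 0.05, adjusted p = 1.55e-21) uninduced, and 3.27 (SE 0.06, adjusted p = 1.41e-27) and 3.06 (SE 0.06, adjusted p = 8.62e-27) stimulated. *Ntn4* (ENSMUSG00000020019, chromosome 10, 93640681 to 93747207), a netrin that binds laminins of the basement membrane, had 5.65, 10.1 and 6.02 CPM uninduced and 4.55, 5.49 and 4.87 CPM stimulated in WT. Uninduced clones had 0.666, 1.02 and 1.55 CPM in clone 1 and 0.647, 0.443 and 0.638 CPM in clone 2, and stimulated clones 3 counts and 1 count. Uninduced, log2 fold changes were -2.74 (SE 0.35, adjusted p = 9.92e-08) and -3.62 (SE 0.37, adjusted p = 1.11e-09). Stimulated, the ratio of counts was 113-fold (exact 95% interval 38.3 to 550.0) lower in clone 1 and 248-fold (exact 95% interval 44.2 to 9830.0) lower in clone 2. *Ntn5* had 5 counts in uninduced WT, 41 in clone 1 and 122 in clone 2, and was higher in both uninduced clones at 3.12 (SE 0.84) and 4.07 (SE 0.80). An antisense gene covers 23.4% of its exonic bases.

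*Unc5b*, a netrin receptor, had 99.9, 87 and 88.9 CPM in uninduced and 495, 503 and 482 CPM in stimulated WT. Clone 1 had 43.4, 42.9 and 38.1 CPM uninduced and 290.0, 298 and 275 CPM stimulated, and clone 2 had 45.6, 45.9 and 51.3 CPM uninduced and 589, 571 and 573 CPM stimulated. Both uninduced clones lay under WT, with -1.15 (SE 0.06) in clone 1 as a DEG and -0.95 (SE 0.06) in clone 2 under the fold threshold. Stimulated clone 1 lay under and stimulated clone 2 above the WT libraries, at -0.78 (SE 0.05) and 0.23 (SE 0.05). *Unc5c*, a receptor of the same family, was not a DEG against WT.

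The response to TGF-β1 + DMII was the stimulated against the uninduced libraries of a genotype. In WT cells 9 of the 51 tested members rose and 14 fell, or 17.6% and 27.5%, where 6.25% of all tested genes rose and 13.6% fell. In clone 1, 6 rose and 12 fell, or 11.8% and 23.5%, against 5.95% and 10.7% of all tested genes. In clone 2, 10 rose and 13 fell, or 19.6% and 25.5%, against 6.46% and 11.2%. The median response of the tested members was -0.27 in WT, -0.46 in clone 1 and -0.19 in clone 2, beside -0.04, -0.02 and -0.02 over all tested genes.

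*Plxna4* had the largest rise in WT, 4.93 (SE 0.22, adjusted p = 2.02e-15), from the uninduced to the stimulated levels given above. It rose by 4.17 (SE 0.48) in clone 1 and by a ratio of counts of 286-fold (exact 95% interval 50.7 to 11400.0) in clone 2. *Sema5a* rose by 2.80 (SE 0.10) in WT, 2.52 (SE 0.12) in clone 1 and 3.69 (SE 0.10) in clone 2. *Sema7a* rose by 2.51 (SE 0.19), 2.19 (SE 0.22) and 3.69 (SE 0.20). These are receptors and membrane ligands whose uninduced and stimulated libraries did not overlap in WT. *Unc5b* rose by 2.42 (SE 0.06) in WT, 2.79 (SE 0.06) in clone 1 and 3.61 (SE 0.06) in clone 2. *Sema3g* rose by 1.55 (SE 0.22), 2.51 (SE 0.22) and 1.18 (SE 0.24), the last a call lost without clone 2 uninduced replicate 2 (0.97). *Slit2* rose past the fold threshold in WT (1.08, SE 0.06) and clone 2 (1.49, SE 0.06), *Efnb2* in WT (1.32, SE 0.07) and clone 2 (2.45, SE 0.10), and *Ephb2* in WT (1.29, SE 0.06) and clone 1 (1.70, SE 0.07). In the other clone each rose but stayed under the fold threshold. These values were 0.68 (SE 0.06) for *Slit2* and 0.86 (SE 0.08) for *Efnb2* in clone 1, and 0.96 (SE 0.07) for *Ephb2* in clone 2. *Nrp1* rose past the fold threshold in clone 2 (1.31, SE 0.06) and had 0.78 (SE 0.06) in WT and 0.61 (SE 0.06) in clone 1.

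Falls were led by *Plxnb3*, with 61, 28 and 65 counts in the uninduced WT libraries and none in the stimulated ones, at least 54-fold lower. In clone 1 its counts fell from 578 to 2, a ratio of 341-fold (exact 95% interval 94.1 to 2830.0), and in clone 2 from 236 to none, at least 46.2-fold. Its level thus fell to or near 0 in all 3 genotypes. *Sema3b* fell with a log2 fold change of -3.91 (SE 0.21, adjusted p = 7.25e-16) in WT, -3.12 (SE 0.17) in clone 1 and -4.39 (SE 0.21) in clone 2. *Slit3* fell in WT, at -3.11 (SE 0.15, adjusted p = 2.95e-16), and the clones held too few counts to show a response. *Plxnb1* had -2.14 (SE 0.13), -2.57 (SE 0.11) and -2.60 (SE 0.11) in the 3 genotypes, and *Sema3f* had -1.17 (SE 0.06), -1.97 (SE 0.06) and -1.10 (SE 0.06). *Sema4b* and *Plxna3* also fell as DEGs in all 3, *Unc5c* and *Plxnc1* in WT and clone 2, and *Ephb6* and *Robo2* in WT. Under the fold threshold were *Unc5c* in clone 1 (-0.46, SE 0.09) and *Ephb6* in clone 1 (-0.54, SE 0.08) and clone 2 (-0.16, SE 0.09). *Plxnc1* had 7 counts uninduced and 3 stimulated in clone 1, and *Robo2* had none in the clones. The WT call of *Plxna3* was lost without uninduced replicate 1 (-0.96), and that of *Ephb6* without stimulated replicate 1 (-0.94), uninduced replicate 3 (-0.95) or with the looser filter (-0.99). That of *Robo2* was lost without stimulated replicate 1 or 3, with the looser filter or with DESeq2 (adjusted p of 0.0564 to 0.14). *Ntn5* fell in clone 1 at -2.21 (SE 0.75), a call lost without clone 1 stimulated replicate 2 (-1.98) or 3 (-1.93) or uninduced replicate 1 (-1.71). The falls of *Efna2* (-1.26, SE 0.32) and *Sema6c* (-1.10, SE 0.14) in clone 1 lost the call without stimulated replicate 3 (-0.87) and stimulated replicate 1, respectively. *Sema3d* fell in WT at -1.06 (SE 0.24), a call lost without uninduced replicate 1 (-0.85) or stimulated replicate 2 (-0.95).

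**Figure D4:**
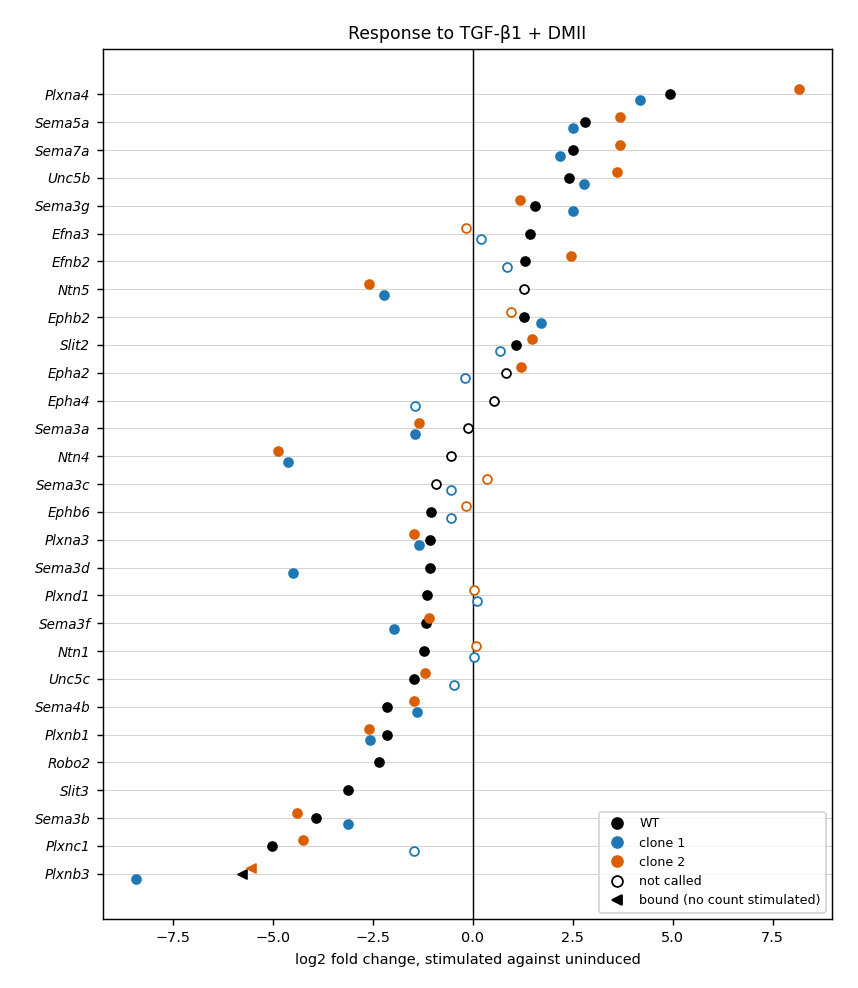
Log2 fold change of stimulated against uninduced libraries in WT (black), clone 1 (blue) and clone 2 (orange) for the 29 members that were DEGs in WT or whose response differed between a clone and WT. Filled symbols are DEGs, triangles are bounds set at 3 counts where the stimulated group had none, points with 1 to 3 counts in a group are count ratios, and pairs of groups at or under 3 counts have no point. Ntn1 and Plxnd1 lie left of 0 in WT and near 0 in both clones, and Ntn4 and Sema3a have -0.54 and -0.11 in WT and lie farther left in both clones.

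Whether the response differed between a clone and WT was tested as an interaction. In clone 1 the response of 4 of the 51 tested members was higher and that of 7 lower than in WT, or 7.84% and 13.7%, against 5.34% and 3.46% of all tested genes. In clone 2 these were 6 and 4, or 11.8% and 7.84%, against 4.89% and 2.96%. *Ntn1* fell in WT (-1.22, SE 0.06) and had 0.03 (SE 0.05) in clone 1 and 0.09 (SE 0.05) in clone 2. The difference in response was 1.25 (SE 0.08, adjusted p = 8.36e-14) in clone 1 and 1.31 (SE 0.08, adjusted p = 4.37e-14) in clone 2. *Plxnd1* likewise fell in WT (-1.15, SE 0.07) and had 0.10 (SE 0.07) and 0.04 (SE 0.07) in the clones, a difference of 1.25 (SE 0.09, adjusted p = 5.64e-12) and 1.18 (SE 0.10, adjusted p = 3.35e-11). *Sema3a* had -0.11 (SE 0.12) in WT and fell in the clones, at -1.45 (SE 0.13) and -1.34 (SE 0.15), a difference of -1.34 (SE 0.18, adjusted p = 3.78e-07) and -1.22 (SE 0.19, adjusted p = 5.44e-06). Tested against 2-fold (glmTreat), the difference of *Sema3a* lost the call in clones 1 and 2 (adjusted p = 0.17 and 0.65). That of *Plxnd1* lost it in clone 2 (adjusted p = 0.206, glmTreat), while *Ntn1* kept it in both clones. *Efna3* rose in WT (1.43, SE 0.28) and had 0.21 (SE 0.29) and -0.16 (SE 0.27) in the clones. Its difference was -1.22 (SE 0.40, adjusted p = 0.0203) in clone 1, lost without WT uninduced replicate 2 (-0.94), stimulated replicate 1 (-1.05) or stimulated replicate 3 (-1.13), and -1.59 (SE 0.39, adjusted p = 0.00206) in clone 2. *Ntn4* had -0.54 (SE 0.30) in WT and fell in both clones, from 62 to 3 counts in clone 1 and from 50 to 1 in clone 2, by ratios of 24.4-fold (exact 95% interval 7.97 to 122) and 29.4-fold (exact 95% interval 5.03 to 1180.0). In clone 2 a higher response than in WT was also called for *Sema3c* (1.26, SE 0.09), *Unc5b* (1.18, SE 0.08), *Sema7a* (1.17, SE 0.28) and *Efnb2* (1.13, SE 0.12). In clone 1 these differences were under the fold threshold, at 0.38, 0.37, -0.33 and -0.46 (adjusted p = 0.00092, 0.000546, 0.46 and 0.000674, edgeR), and whether the responses of the clones differed from each other was not tested.

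Clone 1 and clone 2, which carry the same label, were compared directly in stimulated cells. Of the 51 tested members 5 were higher and 7 lower in clone 1 than in clone 2, or 9.8% and 13.7%, against 5.5% and 4.48% of all tested genes. *Sema5a* was lower in clone 1 at -2.55 (SE 0.09, adjusted p = 1.14e-16), *Sema7a* at -1.69 (SE 0.17, adjusted p = 1.63e-08) and *Sema6a* at -1.73 (SE 0.21, adjusted p = 6.07e-08). All are membrane semaphorins, and their libraries did not overlap between the clones. *Sema3b* (1.71, SE 0.26) and *Sema3g* (1.77, SE 0.21) were higher in clone 1, and *Nrp2* was lower (-1.11, SE 0.06). *Epha4* had 12 counts in clone 1 and none in clone 2, at least 2.93-fold higher, a call lost without clone 1 replicate 1 or without any 1 library of clone 2 (adjusted p = 0.187 and 0.0504 to 0.0583, edgeR). *Sema3e* had no count in clone 1 and 6 in clone 2, at least 2.73-fold lower, a call lost without clone 2 replicate 1 (adjusted p = 0.0904, edgeR). *Epha2* (-1.62, SE 0.10) and *Unc5b* (-1.01, SE 0.05) were lower in clone 1, and *Epha7* (1.03, SE 0.07) and *Sema4g*, with 26 and 3 counts, higher. The call of *Epha7* was lost without clone 1 replicate 3 (0.98) or clone 2 replicate 1 (0.97), and that of *Sema4g* without replicate 2 of either clone (adjusted p = 0.0677 and 0.0695, edgeR). *Unc5b* lay at the fold threshold and fell under it with the DESeq2 test, its size factors, a looser filter, or without clone 1 replicate 3 (-0.96) or clone 2 replicate 1 (-0.99).

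Genes on either side of these ligands and receptors in the pathways were given by a separate list. Of 28 co-receptors and other ligands, 20 were tested, and 1 was higher and 2 lower in stimulated clone 1, and 3 higher and 3 lower in stimulated clone 2. In uninduced cells none was higher and 3 were lower in clone 1, and 2 were higher and 4 lower in clone 2. As shares of those tested these were 5.0% and 10.0% in stimulated clone 1, 15.0% and 15.0% in stimulated clone 2, 0.0% and 15.0% in uninduced clone 1, and 10.0% and 20% in uninduced clone 2. Of 50 intracellular effectors, 44 were tested, with 2 higher and 6 lower in stimulated clone 1 and 5 higher and 2 lower in stimulated clone 2. In uninduced cells 2 were higher and 7 lower in clone 1, and 4 higher and 8 lower in clone 2. The shares of effectors were 4.55% and 13.6% in stimulated clone 1, 11.4% and 4.55% in stimulated clone 2, 4.55% and 15.9% in uninduced clone 1, and 9.09% and 18.2% in uninduced clone 2. Over all tested genes, the shares higher and lower in the same order of comparisons were 9.42% and 9.6%, 7.95% and 8.94%, 6.32% and 8.73%, and 5.54% and 9.56%. *Tiam1*, a Rac exchange factor, had 19, 23.4 and 21.2 CPM in stimulated WT, 1.06, 1.36 and 0.273 CPM in clone 1 and 1 count over the 3 libraries of clone 2. In clone 1 its log2 fold change was -4.52 (SE 0.27, adjusted p = 4.89e-14). *Flrt3*, a membrane ligand of Unc5 and Robo receptors, had 16.1, 14 and 16.1 CPM in stimulated WT, 5.64, 4.98 and 4.14 in clone 1 and 0.392, 0.458 and 0.902 in clone 2, with log2 fold changes of -1.65 (SE 0.14) and -4.71 (SE 0.20). *Ablim1*, an actin-binding LIM protein, was higher in both stimulated clones, with 9.44, 7.69 and 7.44 CPM in WT, 32.1, 35.1 and 39.2 in clone 1 and 61.9, 69.9 and 67.9 in clone 2, at 2.12 (SE 0.09) and 3.03 (SE 0.09). *Vegfd*, a lymphatic growth factor, had 17, 21.2 and 17 CPM in WT, 40.3, 43.1 and 47.6 in clone 1 and 38.3, 40.1 and 36.8 in clone 2, at 1.25 (SE 0.08) and 1.06 (SE 0.08). *Chn2*, a Rac GTPase-activating protein, was higher in the stimulated clones, at 1.79 (SE 0.18) and 1.28 (SE 0.19), and lower in the uninduced ones, at -1.94 (SE 0.14) and -2.43 (SE 0.15).

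The promoters were also read for a few motifs on both strands, in the same 250 bases. The forkhead core GTAAACA occurred in 3.17% of all 32536 promoters and in none of the 58 members'. The SMAD palindrome GTCTAGAC occurred in 0.169% of all promoters and in none of the members'. The shorter SMAD element CAGACA occurred in 17% of all and in 13 of the members', among them *Slit3* (230 bases before the RefSeq start, within the table's gene) and *Sema3d* (161 bases before the RefSeq start). The glucocorticoid receptor motif ACANNNTGT occurred in 5.82% of all and in 3 of the members', among them *Sema3d* (80 bases before the start), and the E-box CACGTG in 6.04% of all and in 2 of the members'. No listed motif contains another. A match is a description of these letters and no evidence of binding.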

How the data were processed

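The authors prepared poly(A) RNA, sequenced it on a NovaSeq, aligned reads with HISAT2 (GRCm38/mm10) and deposited raw counts per gene for 18 libraries. How reads were counted (program, annotation release, strand) is not given in the sources used here. DESeq2 was the authors' tool for differential expression. Of 54532 genes, 53499 had the same coordinates in GENCODE M21, an annotation of GRCm38, as did all 67 members, and this annotation gave overlaps and neighbours. The members and gene lists were chosen with earlier results of these data known, so no list is independent evidence.

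The software was edgeR 4.0.16 with limma 3.58.1, and DESeq2 1.42.0 as an alternative, under R 4.3.3. Tables and figures were made with Python 3.11.15, pandas 2.3.3 and matplotlib 3.10.9. Genes passing filterByExpr by group (minimum count 10), 14317 in all, were scaled with TMM and fitted with glmQLFit (robust, 1 mean per group). They were tested with glmQLFTest, with Benjamini-Hochberg adjustment over all genes. A group with no count was set at a floor of 3 counts over its 3 libraries (0.0354 to 0.0603 CPM), and groups with 1 to 3 counts are given as ratios with exact intervals. Intervals and floors cover counting error only. Library totals had a median of 20178953 counts. No 2 replicate libraries agreed within sampling noise (chi-square over degrees of freedom, 3.13 to 14.6). The fit was tested on simulated data. Values in every library are given by a rule. It took members that were DEGs in the same direction in both clones, the 6 largest WT responses, the 6 largest differences between the clones, the 6 largest differences in response called in both clones (each with a mean of at least 1 CPM), plus each family's leading member by level per kb. *Robo2* and other members under 1 CPM, and *Epha2*, *Epha7*, *Ephb2* and *Unc5c*, are named by their calls. Of the other pathway genes, those called in the same direction in both stimulated clones and with mean CPM of 5 or more were named, at most 8. Sequences are RefSeq promoters, matched by symbol for 58 of the 67 members, of which 54 start within 1000 bases of the table's gene start. The 4 printed were chosen after the values were seen and stop before the table's gene start, and those of *Robo1*, *Sema3a*, *Sema4d* and *Plxna2* start farther away and are not shown.

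Results were recomputed with DESeq2's Wald test, with its size factors, with looser (any count) and stricter (1 CPM in 3 libraries) filters, on the compared groups alone, with a block for replicate number, without the fold threshold, with glmTreat against 2-fold, and leaving out single libraries.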

Additional observations from a re-analysis of the deposited data

Results flagged for a closer look

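The response to TGF-β1 + DMII differed between a clone and WT, by the interaction test of edgeR's quasi-likelihood fit, for 11 members in clone 1 and 10 in clone 2. In both clones the difference on the log2 scale was called for *Ntn1* (1.25 in clone 1 and 1.31 in clone 2), *Plxnd1* (1.25 and 1.18), *Sema3a* (-1.34 and -1.22), *Efna3* (-1.22 and -1.59), *Ntn4* (-3.89 and -3.97) and *Ntn5* (-3.49 and -3.89). The values of *Ntn4* rest on 3 counts in stimulated clone 1 and 1 in stimulated clone 2, and those of *Ntn5* on 5 to 122 counts per group. The calls of *Ntn5* were lost without WT stimulated replicate 2 or 3 in both clones, and in clone 1 also without WT uninduced replicate 2, clone 1 uninduced replicate 1 or 2, or clone 1 stimulated replicate 2 or 3 (adjusted p of 0.0502 to 0.0909 over both clones). In clone 1 and not in clone 2 it was called for *Unc5c* (1.01), *Epha2* (-1.03), *Epha4* (-1.98), *Sema3d* (-2.97) and *Slit3* (4.21). The last 3 rest on few counts, with 29 uninduced and 12 stimulated for *Epha4*, 19 and 1 for *Sema3d*, and 1 and 3 for *Slit3*, so the fitted values depend on the prior count. *Unc5c* and *Epha2* lay at the fold threshold, and leaving out 1 library moved them under it. For *Unc5c* this was WT uninduced replicate 1 (0.89), WT stimulated replicate 1 (0.95), clone 1 uninduced replicate 2 (0.98) or clone 1 stimulated replicate 2 or 3 (0.93 for the latter), and the looser filter also lost the call (0.98). For *Epha2* it was WT uninduced replicate 2 (-0.93), clone 1 uninduced replicate 2 or clone 1 stimulated replicate 1. The calls of the last 3 were lost without clone 1 uninduced replicate 2 (-1.50), stimulated replicate 2 (-1.40) or 3 (-1.54), or WT stimulated replicate 1 or 2 (-1.93 each) for *Epha4*. For *Sema3d* they were lost without clone 1 uninduced replicate 3 (-2.33), stimulated replicate 2 (-2.41) or 3 (-2.54), and for *Slit3* without clone 1 stimulated replicate 1 (4.11) or 2 (3.49). In clone 2 and not in clone 1 it was called for *Efnb2* (1.13), *Sema3c* (1.26), *Sema7a* (1.17) and *Unc5b* (1.18). Whether the responses of the 2 clones differed from each other was not tested. Both clones share the WT libraries. The groups of 3 libraries are too small to look for single outlying libraries.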

How the results depend on the processing

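Of 183 calls of single members, none changed direction under an alternative that gave a value, and 4 had no value under the stricter CPM filter. In all, 51 lost the call under glmTreat, and 29 of these also without a single library. Among the counts of members called, 138 values stayed within 1.5 times the reported count and 14 did not. Without the fold threshold the members called were 44 in stimulated clone 1 and 34 in stimulated clone 2, 40 and 42 in the uninduced clones, 38 in the WT and 35 in the clone 1 response, 29 and 23 for the differences in response of clones 1 and 2, and 28 between the clones. These were 45.1% to 86.3% of the tested members, where the same threshold called 31.2% to 60.7% of all tested genes. A test against 2-fold (glmTreat) left 3 and 2 for the differences in response and 6 between the clones (5.88%, 3.92% and 11.8% of members, against 3.79%, 3.18% and 4.49% of all genes). The differences in response left were those of *Ntn1*, *Ntn4* and *Plxnd1* in clone 1 and of *Ntn1* and *Sema3c* in clone 2. When single libraries were left out, members called ran from 23 to 24 in stimulated clone 1, 19 to 20 in stimulated clone 2, 20 to 24 and 18 to 19 in the uninduced clones, 21 to 25, 16 to 18 and 22 to 24 for the responses of WT, clone 1 and clone 2, and 8 to 12 between the clones. They ran from 6 to 12 for the difference in response of clone 1, with 6 without clone 1 stimulated replicate 2 and 7 without replicate 3, and from 9 to 12 for clone 2. The labels give the groups the same replicate numbers, but no pair of same-numbered libraries deviated together (r across genes of -0.145 to 0.0977). No pairing by number was thus visible, which cannot exclude that same-numbered libraries were handled together. With the replicate number as a block, the response difference of *Epha4* in clone 1 (-1.97) and *Sema4a* in stimulated clone 1 (1.56) and uninduced clone 2 (1.57) lost their calls. Depth limits what can be said of groups at 0, where 3 counts correspond to 0.0354 to 0.0603 CPM.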
